A study of Mus musculus with 9 samples.

Results

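The cardiac natriuretic peptide system was followed through 7 genes, chosen by name, as genes with textbook roles in it. They encode the prohormones of atrial and B-type natriuretic peptide (Nppa and Nppb), the enzymes that cut them (Corin and Furin), and the receptors (Npr1, Npr2 and Npr3). The 7 are among the 55401 genes of the count table, of which 16762 had enough counts to be tested, and all 7 were among those tested. The counts came from 9 RNA-seq libraries of primary ventricular myocytes of wild-type C57BL/6J mice, taken at 1 day of age and grown in DMEM with 10% fetal bovine serum. There were 3 control libraries (normoxia, complete medium), 3 hypoxia libraries (6 h in a sealed chamber with AnaeroPack, in DMEM without glucose or serum) and 3 hypoxia + rSRGN libraries (the same 6 h with recombinant serglycin, a secreted proteoglycan, added). Low oxygen and the loss of glucose and serum therefore cannot be told apart in any comparison with control. The labels do not say whether replicates came from separate cell isolations, so p-values measure only the spread between these libraries, which may be technical.

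Heart muscle makes atrial natriuretic peptide (ANP) and B-type natriuretic peptide (BNP) as prohormones and releases them when it is stretched or stressed. The membrane serine protease corin cuts pro-ANP, and the convertase furin, in the secretory pathway, can cut pro-BNP. The peptides act through guanylyl cyclase receptors that make cyclic GMP, NPR1 for ANP and BNP and NPR2 chiefly for C-type peptide (CNP), while NPR3 mainly takes the peptides up and removes them. In the ventricle both peptide genes are active before birth and fall silent or low afterwards, and their return is a known mark of the stressed adult ventricle.

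Nppa and Nppb are neighbours on chromosome 4. In GRCm38 with GENCODE M25, the build and annotation of the count table, Nppb lay at chr4:147985788-147987205 and Nppa at chr4:148000722-148002079, both on the plus strand with 3 exons, and 13516 bases with 0 annotated genes separated them. The other genes were Corin (chr5:72300025-72504473, minus), Furin (chr7:80388585-80405436, minus), Npr1 (chr3:90450591-90465866, minus), Npr2 (chr4:43631935-43651244, plus) and Npr3 (chr15:11839896-11907287, minus). The stretch just before the start of Nppa is shown because the peptide genes moved together in the comparison of hypoxia with control. All 7 genes matched the RefSeq promoter table (GRCm38.p6), with 8 start sites in all. The 250 bases upstream of each start were searched on both strands for the GATA core GATAA and for TATAAA. Capitals mark these matches, a GATA core on the minus strand reading TTATC. The Nppa stretch is chr4:148000472-148000721, and for Nppb windows of 30 bases are given at chr4:147985799-147985828 and chr4:147985857-147985886, all on the plus strand. The RefSeq start of Nppb lies downstream of its GENCODE start, so the Nppb windows are upstream of the former and inside the GENCODE span given above.
Nppa: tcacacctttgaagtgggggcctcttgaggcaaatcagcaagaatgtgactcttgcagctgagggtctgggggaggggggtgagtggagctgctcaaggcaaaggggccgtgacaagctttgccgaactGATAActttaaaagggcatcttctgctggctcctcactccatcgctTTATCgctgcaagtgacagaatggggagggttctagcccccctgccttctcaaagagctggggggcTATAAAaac
Nppb, GATA: tgcagctGATAAatcagaGATAAccccacc
Nppb, TATA: actcagccccagTATAAAaggcagaggcac
Nppa and Nppb held 2 GATA cores each, and the windows of the other 5 genes held none. Of 32851 RefSeq promoter windows of the same length, 22.6% held at least 1. TATAAA was in the windows of Nppa, Nppb and 1 start of Furin, and in 12.4% of all windows. The core ACGTG of hypoxia-inducible factor sites (16.6% of all windows) was found upstream of Corin, 80 to 76 bases before its start, and of no other of the 7 genes. The letters AAGTG (40.7% of windows) matched Nppa and Furin, CATTCC (12.6%) matched Nppb, and neither TGANTCA (6.75%) nor the CArG box (1.47%) matched any of the 7. Such matches describe the sequence and do not show a bound site.

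Totals ranged from 21669017 to 22781557 counts in control, from 16583985 to 18148474 in hypoxia and from 16640239 to 20826701 in hypoxia + rSRGN. A gene was called when edgeR's quasi-likelihood test gave a Benjamini-Hochberg adjusted p under 0.05 and the fold change was at least 1.5. Between hypoxia and control 51.6% of the genes tested were called, 26.4% higher and 25.1% lower. Between hypoxia + rSRGN and hypoxia 3.13% were called, 2.27% higher and 0.859% lower. Between hypoxia + rSRGN and control 48.8% were called, 24.1% higher and 24.7% lower. The median log2 fold change of all genes tested was 0.05, -0.03 and 0.01 in these comparisons. The first and second comparison share the hypoxia libraries, and those with control as the base share the control libraries.

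The labelled cell type was checked against 20 cardiomyocyte markers, none of which was at 0 in any group. Their summed normalised CPM (counts scaled to the size of the library) were 60044 to 73045 in control, 4874 to 7481 in hypoxia and 9802 to 10321 in hypoxia + rSRGN. Against control, all 20 were called lower in hypoxia (median log2 fold change -3.59), and 17 of 20 were called higher with rSRGN than without (median 0.74). Over the same groups 12 fibroblast markers summed to 13081 to 15264, 27588 to 30414 and 30281 to 31289 CPM, and 10 of 12 were called higher in hypoxia. Of 12 macrophage markers 10 were called lower in hypoxia and 1 higher (median -3.89), and they summed to 234 to 250 CPM in control, 109 to 164 in hypoxia and 137 to 157 with rSRGN. Of 12 endothelial markers 6 were called lower and 3 higher (median -0.27), while their sum was 304 to 339, 584 to 659 and 651 to 662 CPM in the 3 groups. Such a sum follows the most abundant genes of a list and need not follow most of them. In hypoxia the log2 fold changes ran from -6.77 to 8.65 among macrophage markers and from -2.51 to 1.32 among endothelial markers. Of 10 smooth muscle and pericyte markers 2 were called lower and 2 higher, with sums of 2197 to 2537, 2567 to 2844 and 2438 to 2564 CPM. Beside these counts, 25.1% of all genes were called lower and 26.4% higher in hypoxia, and 2.27% were called higher with rSRGN than without. The smooth muscle and pericyte counts and the endothelial count called higher did not exceed those shares. In a culture lysed whole, fewer cells of a type and less RNA per cell cannot be told apart, and the part of either in the results on the 7 genes was not tested.

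Each of the 7 genes was detected in every library, and their levels differed widely. Scaled to exon length (FPKM), control cultures held Nppa at 2450 ± 212 (SD, n = 3) and Nppb at 119 ± 37.7. The processing enzymes followed, with Corin at 22.7 ± 0.161 and Furin at 15.3 ± 1.72 FPKM. Among receptors Npr2 stood at 11.96 ± 0.653 FPKM, far above Npr3 at 0.449 ± 0.0899 and Npr1 at 0.421 ± 0.0752. The levels of Npr3 and Npr1 overlapped in control, as did no other neighbours in that order. In hypoxia Nppa still led at 403 ± 181 FPKM. Npr2 (22.7 ± 1.74) and Nppb (18.5 ± 10.3) came next, and their libraries overlapped. Furin was at 10.2 ± 0.484 FPKM, with the lowest Nppb library (10.5) inside its range. Corin had dropped below Furin and every Npr2 library, to 1.58 ± 0.203 FPKM. With rSRGN the order was Nppa (826 ± 142), Nppb (27.4 ± 1.95), Npr2 (23.4 ± 0.222), Furin (11.7 ± 0.454), Corin (2.80 ± 0.212), Npr3 (0.933 ± 0.116) and Npr1 (0.316 ± 0.119), and no neighbours overlapped.

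**Figure D1:**
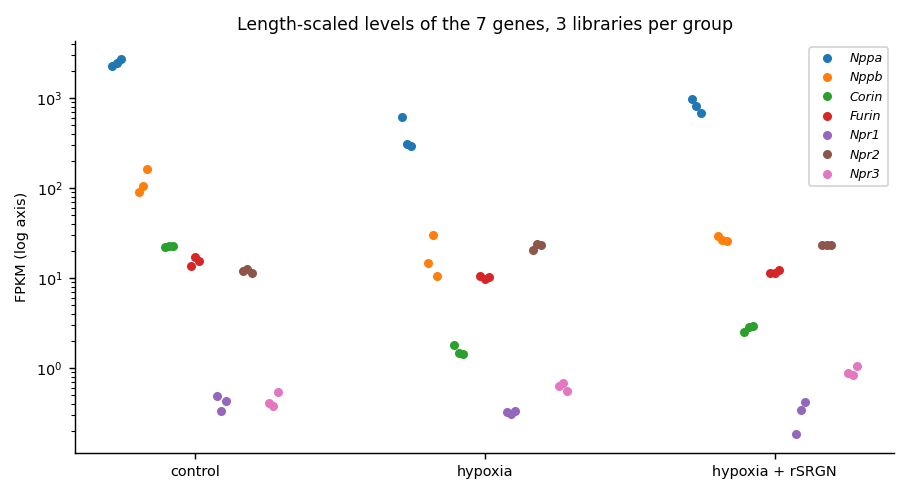
Length-scaled level (FPKM, log axis) of the 7 genes in each of the 3 libraries of control, hypoxia and hypoxia + rSRGN, 1 point per library. Nppa is the highest gene in all 9 libraries, Corin lies above Npr2 in control and below it in both other groups, and Npr1 and Npr3 lie near or below 1 FPKM.

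Both peptide genes were lower in hypoxia than in control. Nppa stood at 1946, 2100 and 2312 CPM in the control libraries, at 530, 266 and 251 in hypoxia, and at 841, 706 and 596 with rSRGN. The 3 groups did not overlap, and hypoxia replicate 1 lay nearer to the lowest rSRGN library than to the other hypoxia libraries. The fall from control was 6.07-fold (log2 fold change -2.60, SE 0.191, edgeR adjusted p = 4.68e-11). Nppa was higher with rSRGN than in hypoxia alone, 2.05-fold (log2 1.03, SE 0.183, adjusted p = 0.000673, edgeR). With 1 library left out the log2 difference ran from 0.85 (no hypoxia replicate 3) to 1.47 (no hypoxia replicate 1), and Nppa was called each time. Against control Nppa with rSRGN was still 2.97-fold lower (adjusted p = 1.15e-07, edgeR).

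Nppb was far less abundant and more variable. Its control libraries held 70.3, 82.2 and 126 CPM, its hypoxia libraries 11.6, 23.5 and 8.17, and its rSRGN libraries 23.1, 20.5 and 20.4. Every control library lay above every other library, while hypoxia replicate 2 lay above all 3 rSRGN libraries. Nppb was 6.44-fold lower in hypoxia than in control (log2 -2.69, SE 0.238, edgeR adjusted p = 1.13e-09) and 4.35-fold lower with rSRGN than in control (adjusted p = 2.99e-08). Its difference between rSRGN and hypoxia did not pass the test (log2 0.57, 95% confidence interval 0.05 to 1.08, edgeR adjusted p = 0.125). Single libraries moved this value widely: without hypoxia replicate 2 the log2 difference was 1.11 and Nppb was called higher, while leaving out hypoxia replicate 1 or 3 lowered the difference to 0.43 or 0.29. With every gene of at least 1 count kept in the fit, the adjusted p was 4.72e-06 at a log2 difference of 0.58, under the fold limit.

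**Figure D2:**
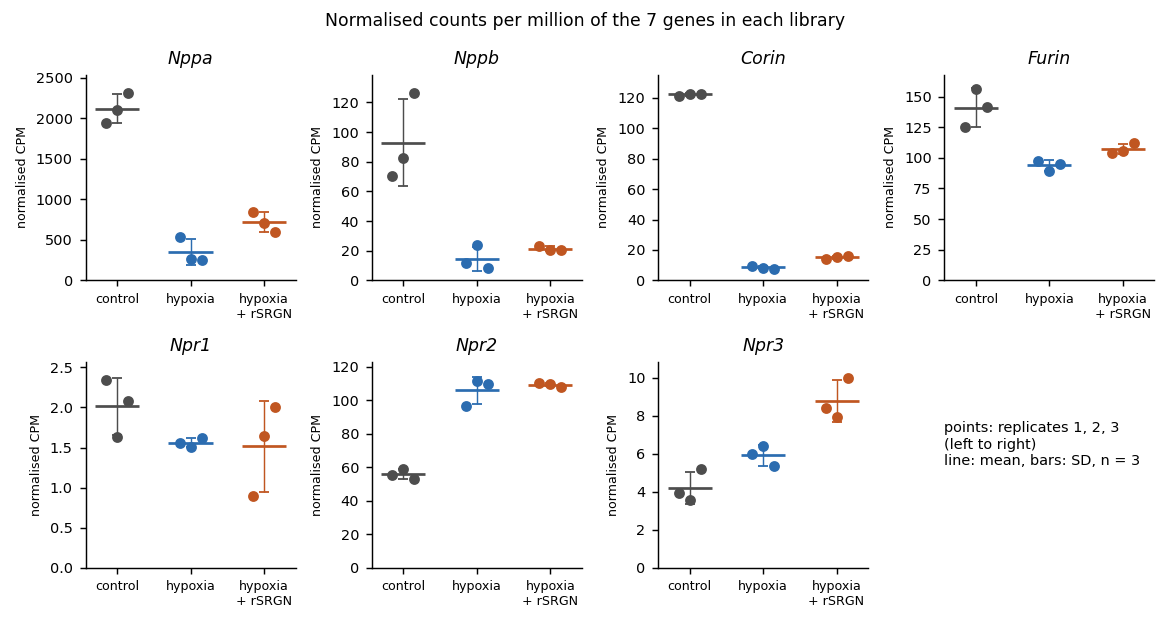
Normalised CPM of each of the 7 genes on linear axes from 0, with points for replicates 1 to 3 of each group, a line at the mean and bars of 1 SD (n = 3). Nppa, Nppb and Corin stand highest in control, Nppa runs from 251 to 530 in hypoxia and from 596 to 841 with rSRGN, and Npr2 stands lowest in control.

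The balance of the peptide genes was measured as the ratio of Nppa to Nppb per length within each library, which no library scaling can move. It was 25, 23.1 and 16.5 in control, 41.2, 10.2 and 27.8 in hypoxia, and 32.9, 31.0 and 26.3 with rSRGN. The hypoxia libraries spanned both other groups, since replicate 1 was high in Nppa and replicate 2 in Nppb. The mean log2 ratio differed by 0.10 between hypoxia and control (exact permutation test, two-sided, p = 0.8), by 0.40 between rSRGN and hypoxia (exact p = 0.8) and by 0.50 between rSRGN and control (exact p = 0.1). Over the 6 such comparisons made, including those of the receptor share, the smallest adjusted p was 0.3, and with 3 libraries against 3 the test cannot give less than 0.1 before adjustment.

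The enzymes differed from each other. Corin, the pro-ANP convertase, stood at 121, 123 and 123 CPM in control, at 9.78, 8.03 and 7.76 in hypoxia and at 13.8, 15.6 and 15.95 with rSRGN. No groups overlapped, and the spread within each was small. Corin fell 14.3-fold in hypoxia (log2 -3.84, SE 0.101, edgeR adjusted p = 2.12e-18), the largest change among the 7 genes. With rSRGN it was 1.77-fold higher than in hypoxia (log2 0.83, SE 0.107, adjusted p = 5.62e-05) and 8.07-fold lower than in control (adjusted p = 5.18e-17).

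Furin, which is made by most cell types, stood at 125, 156 and 142 CPM in control, at 97.6, 88.9 and 94.9 in hypoxia and at 104, 106 and 112 with rSRGN. Again the groups did not overlap, but the distances were short. Furin was 1.501-fold lower in hypoxia (log2 -0.59, SE 0.0805, edgeR adjusted p = 1.11e-06), at the very edge of the fold limit, and it lost the call without control replicate 2 (log2 -0.53), without hypoxia replicate 2 (-0.55) and when libraries were scaled by their totals alone (-0.52). Furin did not pass the test between rSRGN and hypoxia (log2 0.20, 95% confidence interval 0.03 to 0.36, adjusted p = 0.106), and against control its 1.31-fold lower level with rSRGN was under the fold limit (adjusted p = 0.00018, edgeR).

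Of the receptors, Npr2 was called higher in hypoxia, and Npr1 and Npr3 were not called in that comparison. Npr2, the receptor for CNP, stood at 55.4, 59.0 and 53.0 CPM in control, at 96.5, 111 and 110 in hypoxia and at 110, 110 and 108 with rSRGN. All 6 libraries from sealed chambers lay above all 3 control libraries. Npr2 rose 1.90-fold in hypoxia (log2 0.92, SE 0.0760, edgeR adjusted p = 3.28e-10) and stood 1.96-fold above control with rSRGN (adjusted p = 1.61e-10), while its difference between rSRGN and hypoxia was 0.05 on the log2 scale (95% confidence interval -0.11 to 0.20, adjusted p = 0.731). The 12 fibroblast markers had median log2 fold changes of 0.92, 0.99 and 0.02 in these comparisons, in the same order. A link between them and Npr2 was not tested.

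Npr3, the clearance receptor, stood at 3.91, 3.57 and 5.17 CPM in control, at 5.96, 6.41 and 5.33 in hypoxia and at 8.40, 7.90 and 9.98 with rSRGN. The 3 groups did not overlap, with the rSRGN libraries highest. Npr3 was 2.08-fold higher with rSRGN than in control (log2 1.06, SE 0.179, edgeR adjusted p = 1.94e-05). The steps between were under the fold limit: 1.40-fold from control to hypoxia (adjusted p = 0.0227) and 1.48-fold from hypoxia to rSRGN (adjusted p = 0.0303). The adjusted p of the first step rose to 0.122 without control replicate 2 and to 0.0833 without control replicate 1 (edgeR), to 0.0635 without hypoxia replicate 2 (edgeR) and to 0.0662 with DESeq2. That of the second rose to 0.125 without rSRGN replicate 3 and to 0.108 without hypoxia replicate 3 (edgeR), and it was also above 0.05 without hypoxia replicate 1 and without rSRGN replicate 1 or 2. In the other direction, without control replicate 3 the first step was called (log2 0.65), and without hypoxia replicate 2 the second was (log2 0.63), as it also was with DESeq2 (0.60) and with its size factors in edgeR (0.60).

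Npr1, the receptor that ANP and BNP share, had few counts, between 15 and 52 in a library. It stood at 2.34, 1.63 and 2.08 CPM in control, at 1.56, 1.502 and 1.62 in hypoxia and at 0.894, 1.64 and 2.01 with rSRGN. The rSRGN libraries had the widest spread and overlapped both other groups, and the lowest control library lay barely above the highest hypoxia library. No difference was detectable at this depth: the log2 difference was -0.37 (95% confidence interval -1.05 to 0.32) between hypoxia and control, -0.03 (-0.74 to 0.67) between rSRGN and hypoxia, and -0.40 (-1.08 to 0.28) between rSRGN and control, with edgeR adjusted p of 0.326, 0.965 and 0.284.

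Per length, Npr2 made up 92.0% to 96.3% of the receptor transcripts in all 9 libraries. The share of Npr3 was 3.26, 2.84 and 4.47% in control, 2.93, 2.75 and 2.32% in hypoxia and 3.63, 3.40 and 4.31% with rSRGN. Hypoxia overlapped control, and all 3 hypoxia libraries lay below every rSRGN library. The share differed by -0.852 percentage points between hypoxia and control (exact permutation test, two-sided, p = 0.2), by 1.11 points between rSRGN and hypoxia (exact p = 0.1, the smallest the design allows) and by 0.261 points between rSRGN and control (exact p = 0.7).

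**Figure D3:**
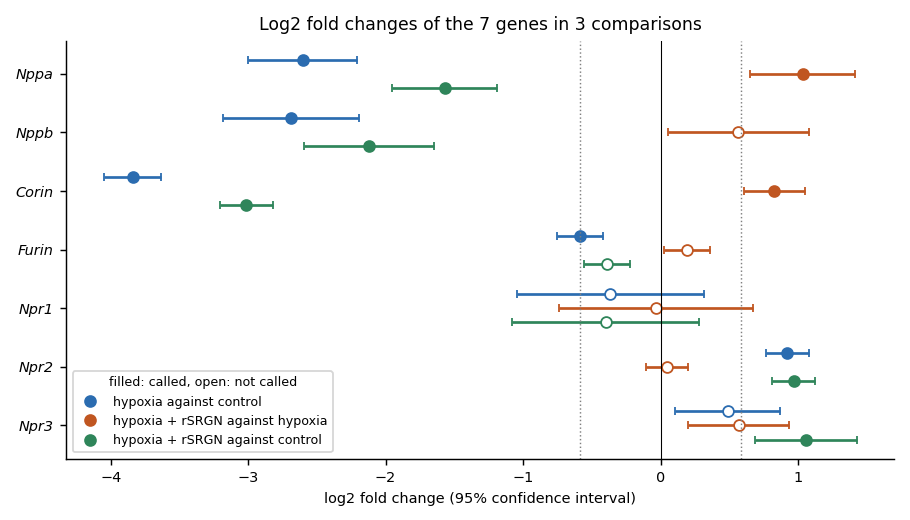
Log2 fold changes of the 7 genes with 95% confidence intervals from edgeR in the 3 comparisons, filled where called and open where not, with dotted lines at the 1.5-fold limit. Nppa, Nppb and Corin lie far below 0 in both comparisons with control, and only Nppa and Corin are filled in the comparison of hypoxia + rSRGN with hypoxia.

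Counted together, 5 of the 7 genes were called between hypoxia and control, 4 lower (Nppa, Nppb, Corin and Furin) and 1 higher (Npr2), where 51.6% of all genes were called. Between hypoxia + rSRGN and hypoxia 2 of 7 were called, Nppa and Corin, both higher, against 3.13% of all genes, and without hypoxia replicate 2 there were 4, with Nppb and Npr3 added. Between rSRGN and control 5 of 7 were called, Nppa, Nppb and Corin lower and Npr2 and Npr3 higher, where 48.8% of all genes were called. Across the 9 libraries log2 CPM of Corin correlated with that of Nppa at r = 0.95, with that of Nppb at 0.94 and with that of Npr2 at -0.96. These coefficients only describe 3 clusters of libraries, and the libraries of a group share their treatment.

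The changes of the peptide genes and of Corin were set beside those of the 20 cardiomyocyte markers in the same libraries. Nppa and Nppb fell less than most of them: 19 of the 20 markers had a more negative log2 fold change than either peptide gene between hypoxia and control. Relative to the mean log2 level of the markers, Nppa stood at 0.28, 0.23 and 0.30 in control, at 1.67, 0.88 and 1.29 in hypoxia and at 1.83, 1.67 and 1.42 with rSRGN. Every library of the latter groups lay above every control library, while hypoxia and rSRGN overlapped. On the same scale the group mean of Nppb was -4.29 in control, -3.37 in hypoxia and -3.41 with rSRGN. Its libraries stood at -4.52, -4.44 and -3.90 in control and at -3.84, -2.62 and -3.65 in hypoxia. Hypoxia replicate 1 thus lay barely above control replicate 3, and replicate 2 was far the highest. Corin kept close to the markers, with means of -3.84, -4.00 and -3.91 on that scale and overlapping groups, and only 4 of the 20 markers fell further than it did. Between rSRGN and hypoxia the log2 fold change of Nppa was above those of all 20 markers that of Corin above those of 15 and that of Nppb, which was not called, above those of 2 and below those of 18, though these ranks carry no test. Because the cells came from ventricles, 10 genes known for high atrial expression were also read. They summed to 2245 to 2359 CPM in control, 517 to 748 in hypoxia and 738 to 957 with rSRGN, 7 of the 9 tested were called lower in hypoxia (median log2 fold change -2.36, 25.1% of all genes lower), and 3 of 9 were called higher with rSRGN (median 0.42, 2.27% of all genes higher).

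The genes most like each of the 7 were found by the smallest root mean square difference in centred log2 CPM over the 9 libraries, among 14256 tested genes with a mean of at least 1 CPM. For Nppa they were Myl4 (0.17), the atrial and fetal myosin light chain, Mybphl (0.18), a myosin-binding protein found in atria and conduction tissue, and Tmtc1 (0.20). For Nppb they were less close: Sgca (0.27), Sorl1 (0.28) and Thbs4 (0.28). For Corin they were Coq8a (0.11), Prkaa2 (0.13) and Myl2 (0.13), the ventricular myosin light chain. Furin was nearest to Dctn1 (0.03), Nacc1 (0.05) and Lama5 (0.05). Npr2 was nearest to Uchl1 (0.04), H13 (0.05) and Tpp1 (0.05). The distances for Npr3 (D16Ertd472e at 0.13 and Tmem67 at 0.15 among the nearest) and Npr1 (Gm43672 at 0.12, Klf8 at 0.17, Kazn at 0.18) include more counting error, as both genes are low.

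Around the paired peptide genes, the tested genes with any part within 100 kb of them differed in their change between hypoxia and control. Mfn2, a mitochondrial fusion protein, fell (log2 -2.99), as did Agtrap (-0.95), a protein that binds the angiotensin receptor. Plod1 (-0.10), 2510039O18Rik (0.04) and Clcn6 (-0.25) were not called. Between rSRGN and hypoxia Nppa was the only gene of this stretch that was called, and Mfn2 had the next adjusted p (log2 0.42, edgeR adjusted p = 0.0014), under the fold limit. The antisense gene Gm13054 shares 532 exon bases with Nppa on the other strand and was called lower with it (-2.51). Gm13054 had 196, 28 and 35 counts in the 3 groups, beside 137658, 18794 and 40047 for Nppa. The file header names neither a strand option nor one for fragments that overlap more than 1 gene, which featureCounts by default leaves uncounted. Fragments in 532 of the 865 exon bases of Nppa may therefore be missing from its counts, so that its FPKM and the ratio of Nppa to Nppb may be too low, and the size of this was not tested. Without a strand option the counts of Gm13054 do not show which strand was transcribed. Its fall cannot be told apart from that of Nppa. Genes on the other strand also overlap exons of Npr2 (266 bases), Npr1 (559), Npr3 (321), Corin (147) and Furin (118).

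**Figure D4:**
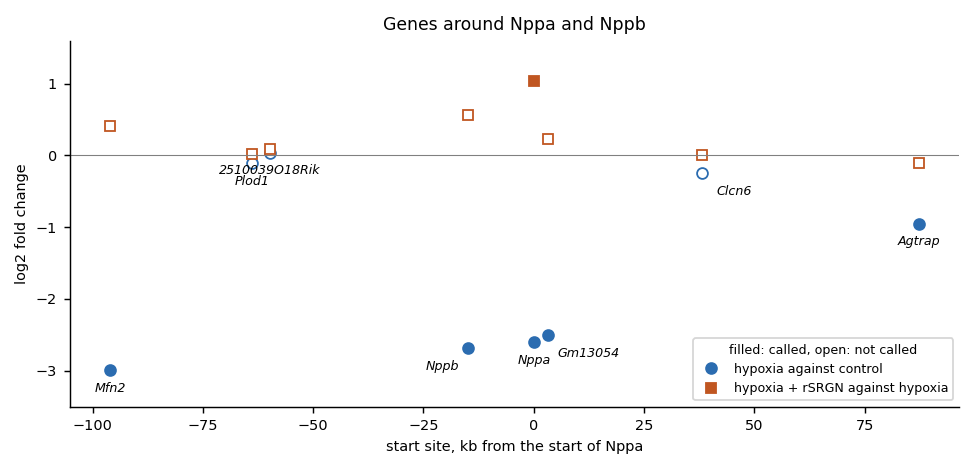
Log2 fold changes of tested genes around Nppa and Nppb against the distance of their start site from the start of Nppa in kb, for hypoxia against control (circles) and hypoxia + rSRGN against hypoxia (squares), filled where called. Mfn2, Nppb, Nppa and Gm13054 lie between -2.51 and -2.99 in the first comparison, and only Nppa is filled in the second.

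Transcription factors known to act on the peptide promoters were read as a list of 22 genes, all tested. Between hypoxia and control 11 were called lower and 2 higher, the median log2 difference being -0.63, where 51.6% of all genes were called and 25.1% were lower. The largest falls were of Myocd (-3.60), the coactivator of serum response factor in heart and smooth muscle, and of Nkx2-5 (-3.53) and Tbx5 (-2.79), core cardiac factors that bind the Nppa promoter. Tbx5 also stands in the list of atrial genes. Gata4, named after its values were seen because of the GATA cores printed above, was at 332 CPM in control, 178 in hypoxia and 182 with rSRGN, called lower in hypoxia (log2 -0.90, edgeR adjusted p = 1.27e-10) and not called between rSRGN and hypoxia (0.03, adjusted p = 0.815). Between those groups, where 2.27% of all genes were called higher, 4 of the 22 were called, all higher: Nkx2-5 (0.89), Tbx3 (0.71), a repressor of working-muscle genes in the conduction system, Myocd (0.67), and Rest (0.62), a repressor known to hold both peptide genes down in the ventricle.

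Genes that respond to load or belong to the fetal cardiac program, which often move with Nppa and Nppb in the stressed heart, numbered 12. In hypoxia 9 were called lower and 1 higher, with a median of -2.30, where 25.1% of all genes were called lower. Xirp1, a protein of the intercalated disc, fell most (-5.90), followed by Myh7 (-4.95), the slow and fetal myosin heavy chain, and Csrp3 (-4.12), a stretch-sensing protein of the Z-disc. Ankrd2 was called higher, with a mean of 0.0473 CPM in control and 2.29 in hypoxia, and no fold is given because its control level rests on very few counts. With rSRGN 5 were called higher than in hypoxia and none lower, with a median of 0.46, where 2.27% of all genes were called higher, and those with the largest change were Xirp1 (1.18), Myh7 (0.88), Tnni1 (0.84) and Csrp3 (0.63). Myh7 is also 1 of the 20 cardiomyocyte markers.

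Downstream of the receptors, 20 of 22 genes of cyclic GMP signalling and peptide clearance were tested, and Nppc and Ostn, whose product occupies NPR3, were too low (5 and 8 counts in all). Between hypoxia and control 9 were called lower and 4 higher (median -0.46), where 25.1% of all genes were lower and 26.4% higher. Pde1c, a phosphodiesterase that breaks down cyclic nucleotides, fell most (-4.03), from 87.2 to 5.33 CPM. Ide, a protease that degrades ANP, fell (-1.34), as did Abcc4 (-1.14), an exporter of cyclic nucleotides, whereas Dpp4, a peptidase that trims BNP, rose (0.98). With rSRGN 2 of the 20 were called higher than in hypoxia and none lower (median 0.21), where 2.27% of all genes were called higher. They were Pde1c (0.88) and Mme (0.70), the gene of neprilysin, which degrades natriuretic peptides and stood at 4.84 CPM in control, 2.96 in hypoxia and 4.78 with rSRGN.

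Relatives of the processing enzymes numbered 13, of which 8 were tested. Tmprss4 had 0 counts in all 9 libraries, which allows a level of up to 0.0171 CPM over the 175329481 counts in all (3 counts, counting error only). Between hypoxia and control 4 were called higher and 1 lower (median 0.30), where 26.4% of all genes were higher. Those called higher included Pcsk4 (1.83) and Pcsk5 (0.92), which encode other convertases of the furin family, and St14, the gene of matriptase, fell (-1.19). Pcsk6, named after its values were seen because its product activates corin, was also called higher in hypoxia (0.69), with means of 26.0 CPM in control, 41.7 in hypoxia and 49.5 with rSRGN. Between rSRGN and hypoxia edgeR called none of the 8 (median -0.03), where 3.13% of all genes were called.

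Other vasoactive peptides and their processing genes made a list of 18, of which 14 were tested. Between hypoxia and control 10 were called higher, 1 was called lower and 3 were not called (median 0.96), where 26.4% of all genes were called higher. Edn1, the gene of endothelin 1, a peptide that stimulates ANP release, rose most (2.74), from 10.3 to 68.7 CPM, followed by Ucn2 (2.42), of the corticotropin-releasing factor family, and Adm2 (1.91), a relative of adrenomedullin. The gene called lower was Pam, an amidating enzyme that is a main membrane protein of atrial secretory granules, which fell (-2.03) from 2691 to 658 CPM. Between rSRGN and hypoxia none of the 14 was called (median -0.0007), where 3.13% of all genes were called. Pam stood at 981 CPM with rSRGN (0.58, edgeR adjusted p = 0.000374), just under the fold limit.

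**Figure D5:**
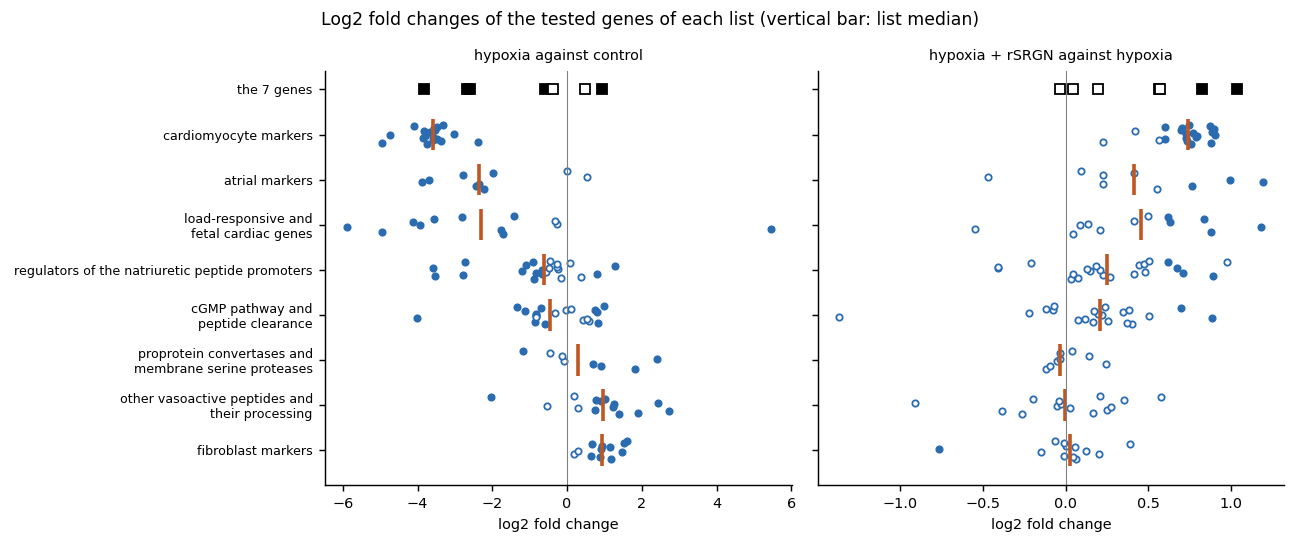
Log2 fold changes of the tested genes of 8 lists and of the 7 genes (squares), for hypoxia against control (left) and hypoxia + rSRGN against hypoxia (right), filled where called, with a vertical bar at each list's median. The medians on the left run from -3.59 for cardiomyocyte markers to 0.96 for other vasoactive peptides, and on the right from -0.03 to 0.74.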

How the data were processed

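RNA was extracted with Trizol, poly(A)-selected and sequenced on an Illumina NovaSeq instrument. The authors counted fragments per gene with featureCounts 2.0.1 on exons of the GENCODE M25 annotation, without a strand option (per the file headers), and the submitters' processing notes name HISAT2 and mm10, with no version given. The deposited values are raw counts for all 9 libraries, with exon lengths, which were used for FPKM. The 7 genes and every list were chosen with earlier results of these data known. After the filterByExpr filter and TMM scaling, counts were fitted in edgeR 4.0.16 (R 4.3.3, glmQLFit and glmQLFTest) over all 9 libraries with 1 mean per group, and p-values were adjusted by Benjamini-Hochberg over the 16762 genes tested. Ratios within a library were compared by exact permutation tests in scipy 1.17.1. Log2 CPM for likeness used a prior count of 2. From each list at most 4 called genes with the largest log2 fold change were named, plus any with 0 counts throughout. Alternatives were other scalings, filters, DESeq2 1.42.0, the groups compared alone, a replicate block and leaving out each library. The fitting was tested on simulated data. Replicate pairs differed by more than sampling noise (chi-square per degree of freedom 3.63 to 13.1), so each library counted once. Replicate numbers did not pair the libraries (correlations of deviations -0.0374 to 0.0215). Counting depth limits Npr1 and Npr3 most. Treatments were taken from the labels. Some items that these rules would name are not reported here.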

Additional observations from a re-analysis of the deposited data

How the results depend on the processing

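The directions of Nppa, Nppb, Corin, Furin and Npr3 held in all 3 comparisons under every alternative run, and the calls of Nppa and Corin held as well. Between hypoxia + rSRGN and hypoxia 525 genes were called, 2790 with no fold limit, 899 at an unadjusted p, and 321 (without hypoxia replicate 3) to 699 with 1 library left out, and 2 to 4 of the 7 genes. In that comparison 72.6% of calls were higher, against 84.3% with DESeq2, 66.9% with library size alone and 62.6% without hypoxia replicate 3. With 1 library left out, the log2 difference ran from -0.27 to 0.22 for Npr1 and from -0.0152 to 0.0855 for Npr2. The difference in the mean log2 Nppa to Nppb ratio ran from -0.333 to 0.674 (hypoxia against control), from -0.176 to 0.831 (rSRGN against hypoxia) and from 0.318 to 0.616 (rSRGN against control). The difference in the mean Npr3 share ran from -1.19 to -0.38, from 0.848 to 1.30 and from -0.0783 to 0.733 percentage points in these comparisons. Without division by length this difference was -1.60 and 2.10 points in the first and second. The cause of these shifts was not tested, and the fits with a library left out also have fewer libraries. With a replicate block 8550, 495 and 8096 genes were called in the 3 comparisons, against 8644, 525 and 8183, and Furin (-0.58) lost its call between hypoxia and control, but the numbers do not pair the libraries. With 3 libraries per group and 15 to 52 counts of Npr1 in each, a 1.5-fold decrease of Npr1 lies inside its confidence intervals in all 3 comparisons.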
